A study of Mus musculus with 8 samples.

Results

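The lysosomal cathepsins examined here were the 10 genes Ctsa, Ctsb, Ctsc, Ctsd, Ctsf, Ctsh, Ctsk, Ctsl, Ctss and Ctsz. They were listed by gene symbol and not by a rule on measured values, but with earlier results of these data known. All 10 were found among the 55357 genes of the deposited table, and all 10 were among the 14514 genes with enough counts to be tested. RNA with a poly(A) tail was sequenced from bone marrow-derived macrophages (BMDM), which were grown for 5 to 6 days from femur and tibia marrow of wild-type C57BL/6J mice in RPMI medium with 10 ng/ml M-CSF, the growth factor that drives marrow cells to become macrophages. The 4 So(d18:1) libraries came from BMDM given 2 μM sphingosine d18:1 in methanol for 6 h, and the 4 control libraries from BMDM given methanol alone for 6 h. The sample labels name no inflammatory stimulus in either group, whereas the study's text places these cells under one. The study calls the samples of each group biologically independent. The labels do not say whether they came from separate cultures or from separate mice.

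Between 17748397 and 26088609 reads per library were counted on genes. Levels of 1 gene across libraries are given as CPM, the counts relative to the TMM-scaled size of the library, and levels of different genes are compared only as TPM, which also divides by gene length. Of the 8 macrophage markers, which all passed the filter, the summed CPM was 30700 to 32900 in control and 26500 to 31300 in So(d18:1) libraries. The 8 neutrophil markers summed to 1680 to 2320 CPM in control and to 1330 to 1510 CPM in So(d18:1) libraries. Osteoclast markers summed to 183 to 197 and 165 to 187 CPM, and those of B cells, dendritic cells, fibroblasts and T and NK cells to at most 19.4 CPM in any library. No listed marker was at 0 in every library. In bulk RNA, fewer cells of a type and less RNA per cell cannot be told apart.

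Cathepsins are proteases of the endosome and lysosome. Most are made as inactive precursors, tagged with mannose 6-phosphate, carried to the lysosome by receptors for that tag and activated there at acid pH, and cystatins hold escaped cysteine cathepsins in check. Ctsb, Ctsc, Ctsf, Ctsh, Ctsk, Ctsl, Ctss and Ctsz encode cysteine proteases, Ctsd an aspartic protease and Ctsa a serine carboxypeptidase. In macrophages they break down engulfed and autophagic cargo, trim the invariant chain and antigens for MHC class II, and can act on matrix when secreted. Genes of the lysosome often carry a CLEAR element, an E-box with the core CACGTG that TFEB and its relatives bind.

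Stretches before transcription starts of cathepsin genes are shown because they show which of these windows hold the E-box core and which do not. Bases after the starts were not searched. RefSeq windows of 250 bases before a transcription start (GRCm38.p6) were held for 8 members, in 9 windows, with no entry for Ctsb and Ctsh. CACGTG, which reads the same on both strands, was present in the windows of 4 members, Ctsa, Ctsd, Ctsf and Ctsl, and in 6.02% of all 32851 windows of this length. The longer TCACGTG, searched on both strands and overlapping CACGTG wherever it occurs, was present for Ctsa and Ctsd and in 3.13% of all windows. The 5 sites follow as 30 bases of the gene's own strand, 5′ to 3′, with CACGTG in capitals.
Ctsa, chr2:164833749-164833778, plus strand: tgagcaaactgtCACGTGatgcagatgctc
Ctsd, chr7:142388048-142388077, minus strand: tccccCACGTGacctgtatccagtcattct
Ctsd, chr7:142387908-142387937, minus strand: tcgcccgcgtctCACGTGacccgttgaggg
Ctsf, chr19:4855074-4855103, plus strand: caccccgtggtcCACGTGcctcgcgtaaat
Ctsl, chr13:64370739-64370768, minus strand: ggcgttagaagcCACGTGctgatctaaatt

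The sites began 12 bases before the RefSeq start for Ctsa, 245 and 98 for Ctsd, 79 for Ctsf and 236 for Ctsl. Ctsa had 2 windows, and its site is in the one that belongs to the downstream start. In the GENCODE annotation the most upstream start of the gene lies 900 bases before the RefSeq start of that Ctsa window, 370 bases before that of Ctsl, 211 before that of Ctsd and 35 before that of Ctsf. The windows with a site thus lie wholly within the annotated gene for Ctsa and Ctsl, mostly within it for Ctsd, and mostly outside it for Ctsf. The 250 bases before the start of Ctsc (chr7:88277835-88278084, plus strand) are shown whole, as those of the gene that fell with the smallest p, and CACGTG is not in them.
Ctsc: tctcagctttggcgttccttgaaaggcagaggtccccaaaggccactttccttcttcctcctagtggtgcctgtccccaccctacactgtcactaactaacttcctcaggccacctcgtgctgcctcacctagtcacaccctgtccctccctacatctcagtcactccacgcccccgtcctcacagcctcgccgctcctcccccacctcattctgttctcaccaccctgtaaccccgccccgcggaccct
The windows of Ctsk, Ctss and Ctsz held no CACGTG either. The shorter ACGTG, the core that HIF factors bind and a part of CACGTG, was found on either strand in the same 4 members and in 16.6% of all windows, and its variant GCGTG in 3 members and 28.2% of all windows. A match in letters is a description and not a measured binding site.

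After So(d18:1), Ctsl was the cathepsin that rose, to 1.38 times its control level, whereas Ctsc fell by 21.2% and Ctsh fell by 20.6%. The other 7 members did not pass the test, although 6 of them had lower fitted values with So(d18:1). Ctsb, Ctsd and Ctss, which hold most of the cathepsin mRNA of these cells, were among those 6. The plot of the 10 genes by library shows that Ctsl, Ctsc and Ctsh were the members whose groups did not overlap.

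**Figure D1:**
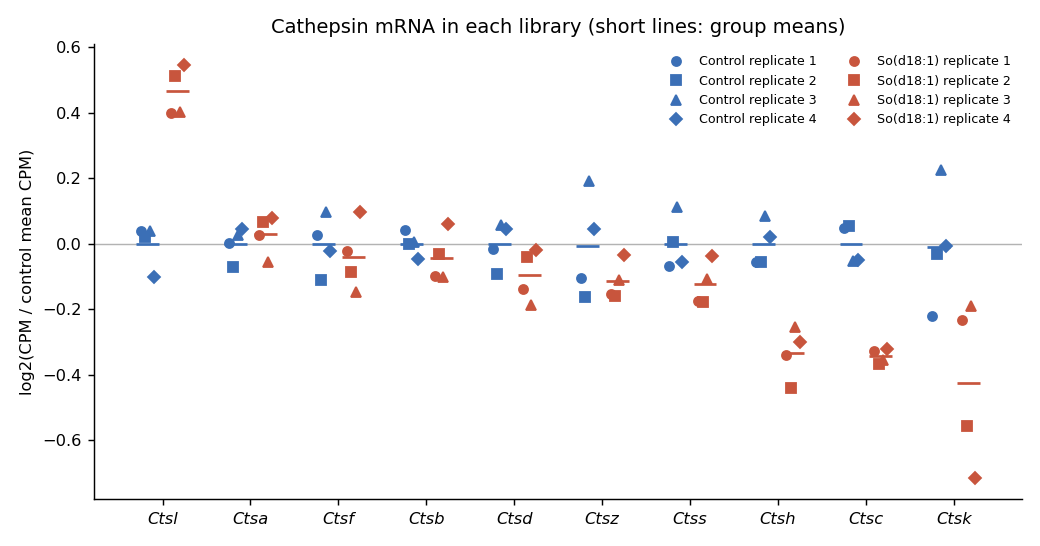
Each point is the level of a cathepsin in 1 library as log2 of its CPM over the control mean CPM (vertical axis), for the 10 genes ordered by fold change (horizontal axis), with 4 control libraries in blue, 4 So(d18:1) libraries in red, marker shapes for replicate numbers and short lines for the mean of the plotted values. The red points of Ctsl all lie above the blue ones, those of Ctsh and Ctsc all lie below, and the groups of the other 7 genes overlap.

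The counts of members stand here beside those of all tested genes. The 1 member called higher (adjusted p under 0.05) compares with 562 of 14514 genes (3.87%), and the 2 called lower with 736 genes (5.07%). Every So(d18:1) library lay above every control library for 1 member and for 7.14% of all genes, and below for 2 members and 7.87%. By the study's cutoff, an unadjusted p under 0.05 with a fold change of at least 1.5, none of the members was called, against 3.89% of all genes. In the same edgeR fit, 5 members had an unadjusted p under 0.05, of which 4 were lower. Many of the 14514 genes passed that threshold. In this fit an unadjusted p of 0.0455 held rank 3261 and 0.0505 held rank 3413. The median log2 fold change was -0.10 over the 10 members and 0.00 over all tested genes. No set test was made, because the members were named with results known.

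Ctsl (ENSMUSG00000021477, chr13:64359337-64370890, minus strand, GRCm38) encodes cathepsin L, a cysteine endopeptidase of broad specificity that also processes other cathepsins. Its level in the 4 control libraries was 1343, 1327, 1344 and 1220 CPM, and in the 4 So(d18:1) libraries 1723, 1865, 1729 and 1910 CPM. The lowest So(d18:1) library thus stood well above the highest control library, and the spread within each group was small beside the gap. Mean CPM was 1308 ± 59.2 in control and 1806 ± 95 with So(d18:1) (SD, n = 4 in both groups). This gave a log2 fold change of 0.47 (SE 0.047, 95% confidence interval 0.37 to 0.56, adjusted p = 1.25e-06). By p it ranked 38 among all tested genes, while by size 377 of the 1298 genes called moved further. The whole interval of the change lay below a fold of 1.5, reaching at most 1.48.

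Part of the exons of Ctsl is shared with other annotated genes. Gm47123, on the opposite strand, covers 26.8% of the bases of its exons and Gm49230, on the same strand, 6.09%. Both were listed at 0 counts in all 8 libraries. The strand setting and the rule for reads that match several genes were not given in the sources used here, so how reads in the shared bases were counted is uncertain.

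Ctsc (ENSMUSG00000030560, chr7:88278085-88310888, plus strand) encodes cathepsin C, also called dipeptidyl peptidase I, which removes pairs of residues from the ends of proteins and activates the serine proteases of neutrophil and mast cell granules. It stood at 821, 825, 766 and 768 CPM in control libraries and at 633, 616, 622 and 636 CPM with So(d18:1). The 4 So(d18:1) values were tightly grouped and all lay below the lowest control. From 795 ± 32.2 to 627 ± 9.43 CPM the log2 fold change was -0.34 (SE 0.042, interval -0.43 to -0.26, adjusted p = 1.25e-05).

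Ctsh (ENSMUSG00000032359, chr9:90054152-90076089, plus strand) encodes cathepsin H, mainly an aminopeptidase. Its control libraries held 398, 398, 439 and 420 CPM and its So(d18:1) libraries 327, 305, 347 and 336 CPM. Here too no So(d18:1) library reached the lowest control. The mean went from 414 ± 19.7 to 329 ± 17.5 CPM, a log2 fold change of -0.33 (SE 0.047, interval -0.43 to -0.23, adjusted p = 7.66e-05).

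Neutrophil markers were also lower with So(d18:1). All 8 had a lower fitted value, by a median log2 fold change of -0.45, and 4 passed the test (S100a8, S100a9, Elane and Mpo). Across control replicates 1 to 4 the 8 markers summed to 1720, 1680, 2320 and 2080 CPM. In the same order Ctsc held 821, 825, 766 and 768 CPM, and Ctsh 398, 398, 439 and 420 CPM. S100a8, an abundant calcium-binding protein of neutrophils, went from 297 ± 40.0 to 208 ± 13.6 CPM (adjusted p = 0.00588) and passed in all 8 fits that left out 1 library. The number of neutrophil markers called lower was 6 without control replicate 2, 2 without So(d18:1) replicate 1 and 1 without control replicate 4 or So(d18:1) replicate 2, 3 or 4, and it was 7 by the DESeq2 Wald test and 3 by limma-voom. Of the 8 macrophage markers, 7 had lower and 1 higher fitted values, by a median log2 fold change of -0.14. The phagocytic receptor gene Mertk (log2 fold change -0.38, adjusted p = 6.20e-06) and the lysosomal glycoprotein gene Cd68 (-0.22, adjusted p = 0.00349) were called lower. The integrin gene Itgam was called higher (0.18, adjusted p = 0.0119), a call lost without So(d18:1) replicate 2. The 5 B cell markers also had lower fitted values, by a median log2 fold change of -0.92, at sums of 16.5 to 19.4 CPM in control and 13.3 to 17.1 CPM in So(d18:1) libraries. Most of each sum was Cd79b, at 13.8 ± 0.593 and 13.2 ± 1.45 CPM (log2 fold change -0.06, adjusted p = 0.753). Among the B cell markers Pax5, for a B cell transcription factor, was called lower, from 1.13 ± 0.36 to 0.468 ± 0.206 CPM (adjusted p = 0.0298), a call lost without control replicate 1 or 3 or So(d18:1) replicate 1, 2 or 3. The part of a change in cell makeup in the results for Ctsc and Ctsh was not tested.

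Ctsk, which encodes the cathepsin that osteoclasts use to digest bone collagen, was the least abundant member, with 91 to 168 counts per library. Its CPM was 5.20, 5.93, 7.08 and 6.03 in control and 5.16, 4.12, 5.31 and 3.69 in So(d18:1) libraries. Control replicate 1 lay below the highest So(d18:1) library, so the groups overlapped. The log2 fold change was -0.42 with a wide interval of -0.72 to -0.12 (SE 0.14), and the adjusted p of 0.0749 missed the threshold. Of the 5 osteoclast markers tested, 3 had lower and 2 higher fitted values with So(d18:1). The proton pump subunit gene Atp6v0d2 was called lower (-0.28, adjusted p = 0.0398), a call lost without control replicate 1 or 3 or So(d18:1) replicate 1, 2 or 3. The phosphatase gene Acp5 (-0.31, adjusted p = 0.051), Mmp9 (-0.10), Dcstamp (0.07) and Nfatc1 (0.01) were not called. Ocstamp, Oscar and Calcr were too low to be tested, with at most 0.625 CPM.

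Ctss encodes cathepsin S, the main protease that cuts the invariant chain in antigen-presenting cells, and lies 17.4 kb from Ctsk on chromosome 3. It held 1882, 1978, 2128 and 1897 CPM in control and 1746, 1743, 1829 and 1920 CPM in So(d18:1) libraries. So(d18:1) replicate 4 lay within the control range and the other three below it. The log2 fold change was -0.12 (SE 0.048, interval -0.22 to -0.02), which did not pass after adjustment (adjusted p = 0.118). No 50-base stretch of transcript was shared between any of the 10 members.

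Ctsd, for the aspartic protease cathepsin D, stood at 3363, 3193, 3540 and 3512 CPM in control and 3091, 3307, 2991 and 3358 CPM in So(d18:1) libraries. The ranges overlapped and the log2 fold change was -0.09 (interval -0.19 to 0.01, adjusted p = 0.243). Of the bases of its exons 34.4% belong also to Gm49369 on the same strand, which was at 0 counts in all libraries. Ctsb, for the abundant cysteine protease cathepsin B, ranged from 11577 to 12307 CPM in control and from 11150 to 12451 CPM with So(d18:1). Its log2 fold change of -0.04 had an interval of -0.14 to 0.05 (adjusted p = 0.635). The exons of Ctsb overlap those of Fdft1 on the opposite strand over 12.8% of their bases, and Fdft1 held 22.4 to 25.0 CPM.

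For the remaining members the groups also overlapped. Ctsz, for the carboxypeptidase cathepsin Z, ranged from 365 to 467 CPM in control and from 366 to 399 CPM in So(d18:1) libraries (log2 fold change -0.11, interval -0.25 to 0.03, adjusted p = 0.334). Ctsa, whose protein also protects β-galactosidase and neuraminidase in a complex, ranged from 743 to 805 and from 752 to 824 CPM (0.03, interval -0.06 to 0.12, adjusted p = 0.739). Its exons overlap those of Pltp on the opposite strand over 10.5% of their bases, and Pltp held 590 to 882 CPM. Ctsf, for a cysteine protease with a long propeptide, ranged from 30.3 to 35.0 and from 29.5 to 35.0 CPM (-0.03, interval -0.17 to 0.11, adjusted p = 0.819). These intervals bound the changes of Ctsa, Ctsb, Ctsd, Ctsf, Ctss and Ctsz within 0.25 on the log2 scale in either direction, without showing that the levels were equal.

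**Figure D2:**
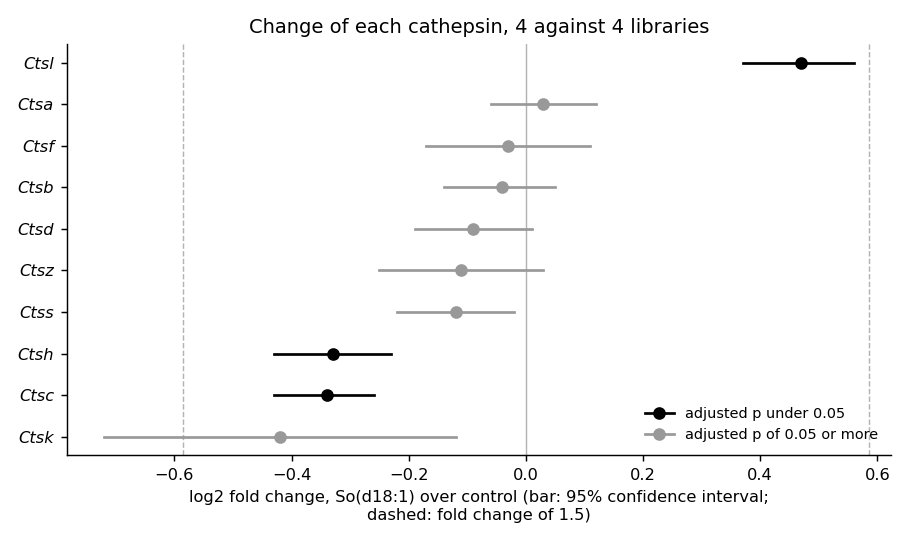
Log2 fold change of each of the 10 cathepsins, So(d18:1) over control (horizontal axis; points, with 95% confidence intervals as bars), in black where the adjusted p was under 0.05 and grey elsewhere, with dashed lines at a fold change of 1.5. The bars of Ctsl, Ctsh and Ctsc lie away from 0 and within the dashed lines, and the bar of Ctsk is the widest, from -0.72 to -0.12.

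Per length, the 10 genes spanned a wide range of levels. In control BMDM the order of mean TPM was Ctsb (6872), Ctss (5048), Ctsd (5032), Ctsz (985), Ctsl (702), Ctsa (576), Ctsc (476), Ctsh (320), Ctsf (22.5) and Ctsk (13.9). Ctss and Ctsd overlapped between libraries and could not be ordered, while every other pair of neighbours was separate in all 4 libraries. In So(d18:1) libraries Ctsl (938 to 1010 TPM) moved above Ctsz (893 to 936 TPM) without overlap. The other places were the same apart from Ctsd and Ctss, which again overlapped.

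**Figure D3:**
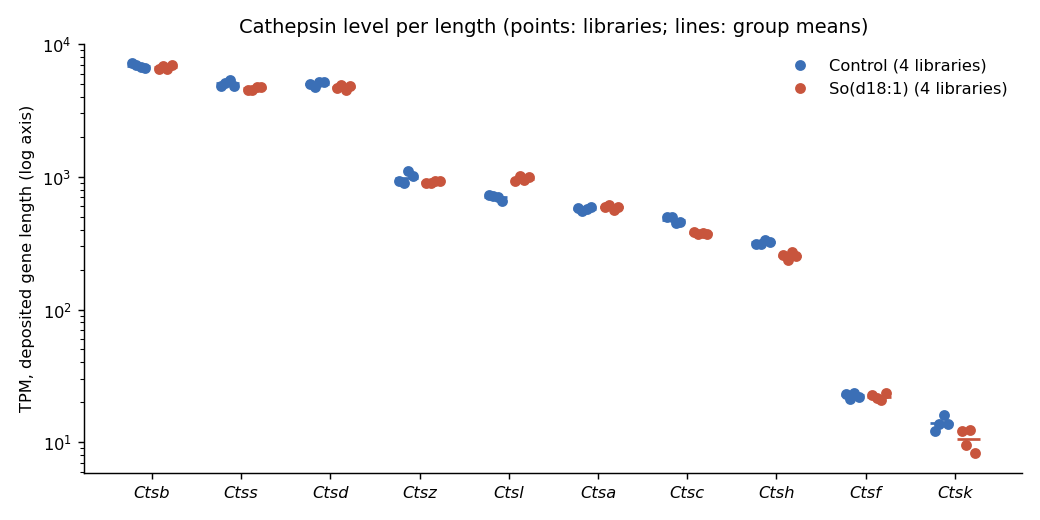
TPM of the 10 cathepsins in each library (vertical log axis), ordered by control mean, with 4 control libraries in blue, 4 So(d18:1) libraries in red and lines for group means. Ctsb, Ctss and Ctsd lie at 4488 TPM or more and Ctsf and Ctsk at 23.7 TPM or less, and the red points of Ctsl reach the height of Ctsz.

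Among all genes, the mean TPM of Ctsl ranked 154 in control and 105 in So(d18:1) libraries, and that of Ctsc 261 and 348. Ctsl made up 3.30% to 3.62% of the summed cathepsin TPM in control and 4.98% to 5.20% with So(d18:1), and Ctsc 2.2% to 2.52% and 1.88% to 2.05%. The summed TPM of the 10 genes was 19734 to 20456 in control and 18825 to 19742 in So(d18:1) libraries, so that 3 of the 4 So(d18:1) libraries lay below every control and the ranges met at their ends. By counts, of which Ctsb holds the most, the 10 genes took 2.06% to 2.13% of all counts in control and 1.99% to 2.16% in So(d18:1) libraries, ranges that overlap. The order in the middle depends on the length used. With the length of the longest principal transcript in place of all exons, Ctsl went from place 8 in control to place 4 with So(d18:1). Ctsc went from 4 to 6, and Ctsz held place 5 in both. For Ctsl that length, 6168 bases, is also that of its longest transcript, so no shorter transcript of Ctsl was tried. With the longest transcript, Ctsl went from place 7 to place 4.

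The genes whose pattern over the 8 libraries was most like each called member were found by the root mean square difference of log2 CPM, centred on the control mean. For Ctsl they were Antxr2 (0.0696), Thbs1 (0.0744) and Il15 (0.0769), with means of 86.8 and 124, 4190 and 5810, and 29.0 and 39.8 CPM in control and So(d18:1). For Ctsc they were F13a1 (0.039), Tagap (0.044) and Ncoa4 (0.0476). For Ctsh they were Plxnc1 (0.0192), Dab2 (0.0285) and Slc7a8 (0.0338), whose log2 fold changes lay between -0.34 and -0.31. These likenesses are descriptions over libraries that share 1 contrast.

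The list of other cathepsins held 13 genes, of which 4 were tested and 3 fell, all without overlap between groups. Fits that left out 1 library called 1 to 3 of them lower. Over all tested genes 3.87% were called higher and 5.07% lower, and 7.14% lay above and 7.87% below without overlap. The counts of this list and of those that follow stand beside these shares. Ctsg, for the neutrophil granule protease cathepsin G, held 8.90, 6.61, 8.64 and 8.75 CPM in control and 4.49, 4.98, 4.63 and 6.44 CPM in So(d18:1) libraries. Every So(d18:1) library lay below every control, with a log2 fold change of -0.66 (SE 0.14, adjusted p = 0.00323). Ctse, for an endosomal aspartic protease, went from 19.2 ± 1.24 to 15.6 ± 0.836 CPM (-0.30, adjusted p = 0.0202), a call lost without control replicate 1 or So(d18:1) replicate 2. Ctsw, for a cathepsin of cytotoxic lymphocytes, was near the detection limit at 0.949 ± 0.341 and 0.364 ± 0.141 CPM (-1.36, adjusted p = 0.0282), and lost its call without control replicate 1 or 4 or So(d18:1) replicate 2 or 3. The neutrophil marker sums given above moved the same way as Ctsg, and their part in that result was not tested. The 9 genes not tested, the placental cathepsins of rodents and Ctsll3, had no count in any library.

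Of the 7 other lysosomal peptidases, 1 was called. Scpep1, for a serine carboxypeptidase, rose from 309 ± 12 to 349 ± 16.9 CPM (log2 fold change 0.17, adjusted p = 0.0179), a call lost without control replicate 4 or So(d18:1) replicate 2. Lgmn, for legumain, the asparaginyl endopeptidase that helps to mature cysteine cathepsins, stood at 1712 ± 30.1 and 1685 ± 71.0 CPM (-0.02, interval -0.11 to 0.07, adjusted p = 0.804). The tripeptidyl peptidase gene Tpp1 (-0.08) and the carboxypeptidase gene Cpq (0.15) did not overlap between groups but missed the threshold (adjusted p = 0.252 and 0.123). Prcp (-0.02), Dpp7 (-0.11) and Napsa (0.04) overlapped.

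No inhibitor of cathepsins passed the test. Of 14 listed, 13 were found and 8 tested, with a median log2 fold change of -0.04, and at an unadjusted p under 0.05 the edgeR fit held 2, Cstb and Ctla2a. The DESeq2 Wald test, limma-voom and the edgeR likelihood ratio test also called 0. With no filter on low counts, with the replicate number as a block, or without So(d18:1) replicate 4, 1 was called lower. Cst3, for the secreted inhibitor cystatin C, stood at 613 ± 41.5 and 579 ± 28.9 CPM (-0.08, adjusted p = 0.348). Cstb, for the cytosolic cystatin B, stood at 144 ± 11.7 and 129 ± 8.02 CPM (-0.16, adjusted p = 0.0774), and was called without So(d18:1) replicate 4. Ctla2a, whose product resembles the propeptide of cathepsin L, stood at 5.85 ± 0.463 and 7.34 ± 0.797 CPM (0.33, adjusted p = 0.0893). The other 5 tested, Cst7, Ctla2b, Serpina3g, Serpinb6a and Serpinb6b, had adjusted p-values of at least 0.453.

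Of the 6 partners and substrates, Glb1, for the β-galactosidase that cathepsin A protects, was called higher, from 125 ± 1.28 to 139 ± 8.09 CPM (log2 fold change 0.15, adjusted p = 0.0471), but in only 1 of the 8 fits that left out a library, the one without So(d18:1) replicate 3. Neu1 (-0.03) and Galns (-0.09), the other enzymes of that complex, were not called. Cd74, the invariant chain that cathepsins S and L cut, held 155, 149, 306 and 199 CPM in control and 117, 95.3, 141 and 110 CPM in So(d18:1) libraries. All So(d18:1) libraries lay below the controls, of which replicate 3 stood high, and the log2 fold change of -0.80 (interval -1.46 to -0.14) missed the threshold (adjusted p = 0.142). B cells also express Cd74, and the part of the lower B cell markers in these values was not tested. The lysosomal precursor genes Psap (-0.10, adjusted p = 0.203) and Grn (0.06, adjusted p = 0.446) were not called.

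Of the 12 genes that tag and sort lysosomal enzymes by mannose 6-phosphate, 2 were called lower and none higher. The DESeq2 Wald test called 4 lower, limma-voom 2 and the fit with the replicate number as a block 5. Fits that left out 1 library called 1 to 3 lower. Gga2, for an adaptor that loads the receptors at the trans-Golgi, fell from 40.3 ± 3.61 to 31.7 ± 1.95 CPM (-0.35, adjusted p = 0.00201). Vps26a, for a subunit of the retromer that returns the receptors, fell from 186 ± 3.98 to 167 ± 8.03 CPM (-0.16, adjusted p = 0.0265), and this call was lost without control replicate 3 or 4 or So(d18:1) replicate 1, 2 or 3. The receptor genes M6pr (0.03) and Igf2r (-0.20) had adjusted p-values of 0.719 and 0.0538.

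Among 24 other lysosomal hydrolases, 2 were called higher and 5 lower, with a median log2 fold change of -0.04. Lipa, for the acid lipase that frees cholesterol from esters, fell from 1271 ± 94.0 to 1042 ± 32.9 CPM (-0.29, adjusted p = 0.000663). The acid phosphatase gene Acp2 fell too (-0.21, adjusted p = 0.00184), as did Pla2g15 and Dnase2a. The acid sphingomyelinase gene Smpd1 (0.24, adjusted p = 0.0359) and the fucosidase gene Fuca1 (0.15, adjusted p = 0.0386) were called higher, and both calls were lost without control replicate 2, 3 or 4 or So(d18:1) replicate 2 or 4. Of 12 lysosomal membrane proteins, Npc1, for the exporter of lysosomal cholesterol, fell from 302 ± 20.7 to 244 ± 7.49 CPM (-0.31, adjusted p = 0.00023), and Lamp1 (0.01) and Lamp2 (0.01) were not called. Of the 4 MiT/TFE factors that bind CLEAR elements, Mitf fell from 94.9 ± 1.54 to 82.7 ± 3.93 CPM (-0.20, adjusted p = 0.00795), while Tfeb (-0.13, adjusted p = 0.264), Tfe3 (0.00, adjusted p = 0.986) and Tfec (0.07, adjusted p = 0.543) were not called. Of the 4 cathepsins with CACGTG in their windows, Ctsl rose, and Ctsa, Ctsd and Ctsf were not called.

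**Figure D4:**
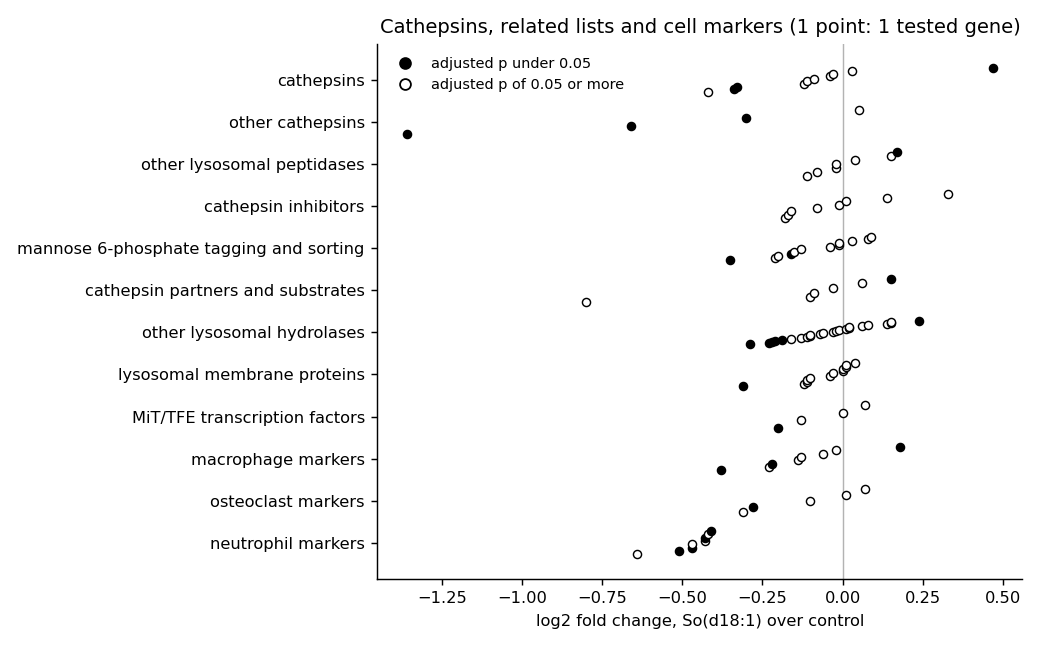
Log2 fold change, So(d18:1) over control (horizontal axis), of each tested gene of the 10 cathepsins, the 8 related lists and 3 lists of cell markers (rows), with 1 point per gene, filled where the adjusted p was under 0.05. Ctsl is the rightmost filled point at 0.47, the 3 filled points of the other cathepsins lie at -0.30 and below, and all neutrophil markers lie left of 0.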

How the data were processed

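Poly(A) RNA from 8 BMDM libraries was sequenced, 4 per group. Per the labels and methods, Trim Galore 0.6.7 was used for trimming, HISAT2 2.2.1 for alignment to mm10 and featureCounts 2.0.1 for counting, and the authors deposited whole-number counts per Ensembl gene, not normalized. The authors also deposited a gene length in bases, which equalled the merged exons of GENCODE release M21 for 98.7% of genes with a symbol there (52081). Strand setting, annotation release and handling of multi-mapped reads were not given in the sources used here.

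Counts were filtered with filterByExpr, scaled by TMM and tested with the quasi-likelihood F test of edgeR 4.0.16 (R 4.3.3), with Benjamini-Hochberg adjustment over 14514 genes and a threshold of 0.05. The prior count of log2 CPM was 2. TPM were computed from the counts and lengths. Values are mean ± SD (n = 4), with 17748397 to 26088609 counts per library. Replicates of a group differed by more than counting noise (chi-square per gene 2.75 to 12.1). The model was tested on simulated data. Promoter windows were RefSeq's.

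The members and lists were chosen with earlier results of these data known. All members were named. In each pathway list the up to 3 called genes with the smallest p were named, with all tested partners, peptidases and inhibitors, and the 3 genes most like each of the 3 members with the smallest p (mean log2 CPM of at least 1). The values of 1 gene that this rule names are not reported here. Pla2g15, Dnase2a, Lamp1, Lamp2, M6pr, Igf2r, Tfeb, Tfe3, Tfec and the single markers were named after their values were seen. Alternatives were DESeq2 (1.42.0) size factors, upper quartile scaling, library size alone, other filters, the replicate number as a block, the DESeq2 Wald test, limma-voom (3.58.1), the edgeR likelihood ratio test, the study's cutoff, and each library left out. The length of the longest principal transcript was added after seeing the data.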

Additional observations from a re-analysis of the deposited data

Results flagged for a closer look

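In groups of 4 libraries, 1 library stood apart from the others in 5 of the 82 groups examined (41 genes in each condition), where chance flags about 1 in 20, or 4.1. The measure is the gap of the outermost library to its nearest neighbour divided by the range of the group, and a group was flagged above Dixon's critical value for 4 samples at the 95% level. For Ctsl in control it was 0.87, with replicate 4 at 10.25 on the log2 CPM scale and the others at 10.37 to 10.39. Without that library the log2 fold change of Ctsl was 0.43 (adjusted p = 1.27e-05). For Ctsg in control it was 0.901, with replicate 2 at 2.74 and the others at 3.13 to 3.17, and without it the log2 fold change was -0.76 (adjusted p = 0.000798).

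The cystatin F gene Cst7 was flagged in both groups, with replicate 1 high in control (0.89) and replicate 1 low in So(d18:1) (0.884). Its log2 fold change was 0.34 and 0.30 without the one or the other library, and it was not called in either fit. For Prcp in So(d18:1), replicate 4 stood high (0.856).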

How the results depend on the processing

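Ctsl, Ctsc and Ctsh passed the threshold with their direction in all 17 alternative fits, with adjusted p-values of at most 1.63e-05, 0.000161 and 0.000766. Ctsa, Ctsb, Ctsd, Ctss and Ctsz were called in none of the 17. The median log2 fold change of all genes was 0.00361 with TMM and between -0.00852 and 0.0102 with the other scalings. By the study's cutoff the members called were 0 in each direction and the genes called 564. Without 1 library, 815 to 1370 genes were called, with 815 without So(d18:1) replicate 2. Fewer libraries enter those fits. Ctsf had the opposite sign without control replicate 3 (0.0034) and without So(d18:1) replicate 3 (0.005), and its values ranged from -0.083 to 0.005 over the fits without 1 library; the cause was not tested.

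The labels do not say that replicate numbers pair the libraries, and libraries with the same number deviated together little (correlations -0.00351, 0.1, 0.0331 and 0.00909). With the replicate block 1784 genes were called in place of 1298, among them Ctsk (adjusted p = 0.0482), Cd74 (0.0206) and Cstb (0.0339). Ctsk also passed in the likelihood ratio test (0.0494). It lies at 91 to 168 counts per library, the fewest of the 10 members.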
